A study of Mus musculus with 4 samples.

Results

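β cells of Myt3 mutant islets that carried the most Mafa transcripts were compared with β cells of the same islets that carried the fewest. A droplet barcode was taken as a β cell if it held at least 2000 unique molecular identifiers (UMIs, each standing for 1 captured transcript), at most 10% mitochondrial UMIs, at least 20% Ins1 and Ins2 UMIs together, and less than 2% each of Gcg, Sst and Ppy UMIs. This left 1509 β cells of 3023 barcodes in mutant 1 and 1215 of 2045 in mutant 2, or 2724 of 5068 in both. In each library the β cells were ranked by Mafa UMIs per 10000 UMIs and divided into 4 groups of like size (quartiles), with ties kept in barcode order. The top quartile is called Mafa-high and the bottom quartile Mafa-low, with 377 cells each in mutant 1 and 303 cells each in mutant 2. The 680 Mafa-high and 680 Mafa-low cells, 1360 in all, stand among 7376 barcodes in the 3 libraries with a matrix. The comparison asks which other transcripts go with Mafa in both mutant libraries.

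The study profiled dissociated pancreatic islet cells of adult mice by single-cell RNA-Seq, in mutant 1, mutant 2, control 1 and control 2. The mutants are homozygous for an insertion of 12 bp in an exon of Myt3 (also called St18) that disrupts an upstream open reading frame, made with CRISPR-Cas9, and the controls are homozygous for the wildtype allele after outcrossing of the same founder. Each library came from the pooled islets of several animals, so the spread between libraries is not a spread between mice. Diet and platform are given differently by the sources (normal diet and PIPseq by the labels, high-fat diet and inDrop by the methods), and this was not resolved here. The mutant libraries held 8448466 and 9013499 UMIs and control 2 held 36985253. Control 1 was not analysed here. Control 2 went through the same selection as a library that the choice of genes did not use, and gave 1996 β cells and quartiles of 499 cells. No test between genotypes was made with 1 control matrix. Libraries are called by their labels, which the counts do not check, since the insertion is not read in them. In the Mafa-low quartiles the libraries labelled mutant had more UMIs per 10000 than the library labelled control 2 for Nkx6-1 (9.48 and 9.21 against 3.09), Pdx1 (1.56 and 1.55 against 0.661) and Slc2a2 (1.49 and 1.45 against 0.351). They had fewer for Aldh1a3 (0.491 and 0.380 against 1.83) and Atf4 (0.782 and 0.660 against 1.44). For Mafa itself, which the ranking used, the libraries labelled mutant had 5.33 and 5.10 against 0.0301 in these lowest-ranked cells. In the Mafa-high quartiles they had 29.9 and 26.5 against 6.49, so the size of the gap depends on the quartile. The paper, which compared all β cells and not quartiles, reports the reverse. It gives Mafa, Nkx6.1, Pdx1 and Slc2a2 transcripts as lower and Aldh1a3 and Atf4 as higher in mutant β cells. The paper also gives Nkx2.2 and Myt1 transcripts as lower in mutants. In the Mafa-low quartiles Nkx2-2 had 4.50 and 3.88 in the libraries labelled mutant against 1.73 in control 2. Myt1 had 0.265 and 0.429 against 0.281, with the libraries labelled mutant on both sides of control 2. The paper further reports less Myt3 and Pdx1 protein in mutant islet cells after high-fat feeding. Whether a library carries the genotype of its label, and the part of depth in these gaps, were not tested, so directions set between mutants and control 2 are those of the labels.

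The methods state that each sample pooled animals of both sexes, but the data gave little sign of female cells. Xist, the RNA of the inactive X chromosome, had a UMI in 1 β cell of mutant 1, while mutant 2 had 7 such cells and control 2 had 2. A UMI of a Y-linked gene was seen in 70.2% of β cells in mutant 1 (1059 cells), in 80.8% in mutant 2 (982 cells) and in 86.2% in control 2 (1720 cells). The quartiles of a library had similar shares at 2000 UMIs per cell, with a Y-linked UMI in 50.9% of Mafa-low and 49.6% of Mafa-high cells in mutant 1 and in 54.8% and 52.8% in mutant 2. No barcode was shared between any 2 libraries. Over 10859 genes the Mafa-low and Mafa-high cells together, summed without thinning, differed between the mutant libraries by more than counting noise (chi-square divided by its degrees of freedom, 2.95). The part of variation between cells in this value was not tested.

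Mafa encodes a basic leucine zipper transcription factor of the Maf family that in the adult mouse islet is largely restricted to β cells. It binds Maf recognition elements, activates the insulin genes and genes of glucose sensing and secretion, and is known as a mark of the mature β cell whose level falls under metabolic stress. Myt3 belongs with Myt1 and Myt2 to a small family of DNA-binding proteins known from neural and endocrine development.

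The ranking gave Mafa-low cells of 0 to 9.03 Mafa UMIs per 10000 in mutant 1 and 0 to 8.93 in mutant 2, with medians of 5.53 and 5.58. Mafa-high cells ran from 21.3 to 57.3 in mutant 1 and from 20.1 to 60.7 in mutant 2, with medians of 27.6 and 24.7. The cells next to the edges were almost alike. In mutant 1 the last cell inside Mafa-high had 21.33 and the first one outside had 21.32, while at the lower edge the values were 9.03 inside and 9.04 outside. In mutant 2 the 2 cells at the upper edge were tied at 20.14, and at the lower edge the values were 8.93 and 8.95. No Mafa UMI was seen in 45 β cells of mutant 1 and 24 of mutant 2. The quartiles are cuts of a ranking and were not taken as cell types. The members were chosen by these Mafa values, so they were not tested.

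At a few Mafa UMIs per cell, ranking also sorts cells by the sampling of UMIs. Each cell's UMIs were therefore split at random into equal sets A and B, cells were ranked on set A alone, and Mafa was read in set B. In set A the level went from 3.47 to 30.9 Mafa UMIs per 10000 in mutant 1 and from 3.65 to 27.8 in mutant 2. In set B it went from 11.4 (95% Poisson interval 10.6 to 12.2) to 21.5 (20.4 to 22.6) in mutant 1, a ratio of 1.89 (1.73 to 2.05). In mutant 2 it went from 9.64 (8.99 to 10.3) to 20.8 (19.8 to 21.9), a ratio of 2.16 (1.99 to 2.35). Mafa thus differed between the groups in UMIs that had no part in the ranking, but by much less than the 5.61-fold and 5.20-fold of the quartiles as ranked. In control 2 set B gave 0.926 (0.824 to 1.04) and 5.13 (4.91 to 5.36), a ratio of 5.54 (4.91 to 6.28). The intervals cover counting error only.

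**Figure D1:**
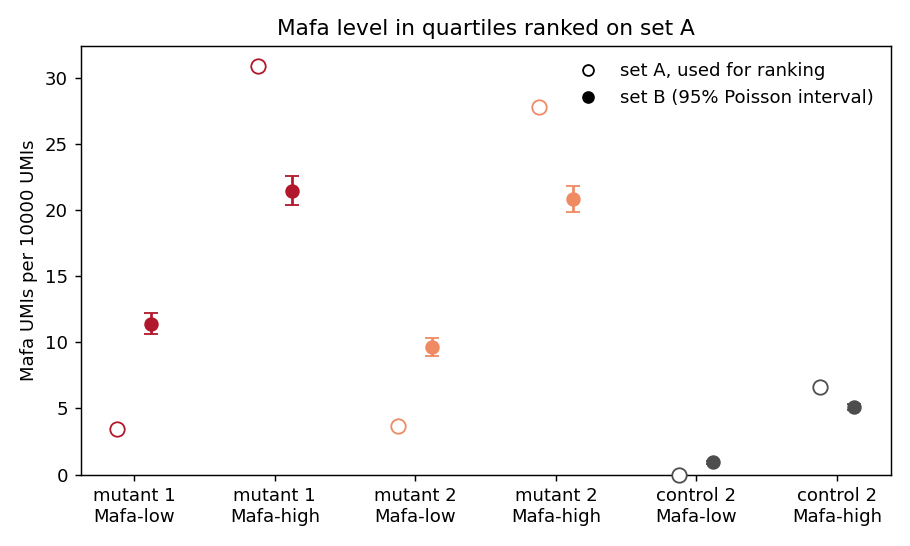
Mafa UMIs per 10000 UMIs (vertical axis) in Mafa-low and Mafa-high cells of each library, when cells were ranked on set A. Open circles are set A, filled circles set B with exact 95% Poisson intervals. Set B shows 11.4 and 21.5 in mutant 1 and 9.64 and 20.8 in mutant 2, well inside the range of set A.

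Mafa UMIs also occurred in barcodes that should lack the gene. Among cells with under 20% insulin UMIs and at least 10% Gcg UMIs, which should be mostly α cells, 26.9% in mutant 1 and 28.2% in mutant 2 had a Mafa UMI at 2000 UMIs per cell, or 1.59 and 1.90 Mafa UMIs per 10000. Their median depths were 2676.5 and 3213 UMIs. The Mafa-low quartiles stood above this, with a Mafa UMI in 69.5% and 66.7% of cells and 5.33 and 5.10 per 10000, at median depths of 3623 and 5309 UMIs. In Mafa-high cells the share was 99.3% in mutant 2, with a Mafa UMI in all 377 cells of mutant 1, and the levels 29.9 and 26.5 per 10000. In control 2, 1 of 34 such Gcg-rich cells had a Mafa UMI, or 0.147 Mafa UMIs per 10000. Its Mafa-low quartile had 0.0301 per 10000, with a Mafa UMI in 0.601% of cells, and did not stand above them. The share in the Gcg-rich cells was taken as a background level. Its source, such as free RNA or doublets, was not tested.

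The hormone transcripts, which the selection used, are given as a description. Ins1 was lower in Mafa-high than in Mafa-low cells, with 618 against 741 UMIs per 10000 in mutant 1 and 722 against 830 in mutant 2, and was lower in order over the 4 quartiles of both libraries. Ins2 changed less, from 3497 to 3399 and from 3533 to 3441. Gcg went the other way, from 20.4 to 27.5 and from 27.6 to 35.6, in order over the 4 quartiles of both libraries. Sst was lower in Mafa-high cells, from 5.54 to 3.55 and from 6.30 to 5.35. Ppy was higher, from 6.21 to 7.56 and from 7.77 to 8.20, and neither was in order over the quartiles. In control 2 Ins1 was higher in Mafa-high cells, with 1347 against 1157, but not in order, with 1322 and 1376 in quartiles 2 and 3. Ins1, one of the rodent insulin genes, was thus lower in the top than in the bottom quartile of the mutants and higher in that of control 2. Median depth was 3304 UMIs in Mafa-high and 3623 in Mafa-low cells of mutant 1, and 4767 and 5309 in mutant 2, while in control 2 the Mafa-high cells were the deeper ones (14119 against 9799). Mitochondrial UMIs took 100.2 and 107 per 10000 in mutant 1 and 93.8 and 100.4 in mutant 2. The part of depth in these differences was not tested in the hormone values, and the gene tests below were made after each cell had been thinned to 2000 UMIs.

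Outside the genes of the selection, Ero1b, Lars2 and 5 others were called higher in Mafa-high cells and Spidr, Bc1 and 3 others lower. UMIs of the thinned cells were summed per group and library, and the 5962 genes that averaged at least 10 UMIs over the 4 sums were tested with edgeR, with the library as a block. At an adjusted p below 0.05 and with the same sign in both libraries, 12 genes differed (0.201% of those tested), and 504 had an unadjusted p below 0.05. Higher in Mafa-high cells were 7 (0.117%), namely Lars2, Enpp6, Prss53, Pdha1, Wsb2, Ero1b and Iapp, and lower were 5 (0.0839%), namely Bc1, Spidr, Malat1, mt-Co2 and Pigr. This number depends on which UMIs the thinning kept. Over 20 random draws of 2000 UMIs per cell it ran from 0 to 65 with a median of 33.5, and none of the genes was called in all 20. Ero1b and Lars2 were called in 19, Spidr in 18, Bc1 in 17, Prss53 in 16, Pigr in 15, Malat1 in 14, Enpp6 and Wsb2 in 13, Pdha1 in 12, mt-Co2 in 10 and Iapp in 9. With plain totals in place of TMM scaling edgeR called 0 genes, with 445 at an unadjusted p below 0.05, and DESeq2 called 6 under its own scaling. Each gene has 1 residual degree of freedom, so the calls rest on a spread shared across genes. Values per library are therefore given beside each call.

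The libraries agreed better for abundant than for rare transcripts. By size alone, 116 genes (1.95%) lay above 0.5 and 156 (2.62%) below -0.5 on the log2 scale in both libraries, against 182 (3.05%) past 0.5 in opposite directions. With plain totals the numbers above and below were 149 and 119. Among 539 genes with a mean of at least 100 UMIs, 1 lay above, 3 below and 0 in opposite directions. The sign was shared by 54.6% of all genes tested, by 67.7% of the 539 and by 76.6% of the 111 with a mean of at least 300 UMIs. Pearson's r between the libraries' ratios was 0.10 over all 5962 genes and 0.73 over the 111, which describes genes within 1 pair of libraries and not independent replicates.

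**Figure D2:**
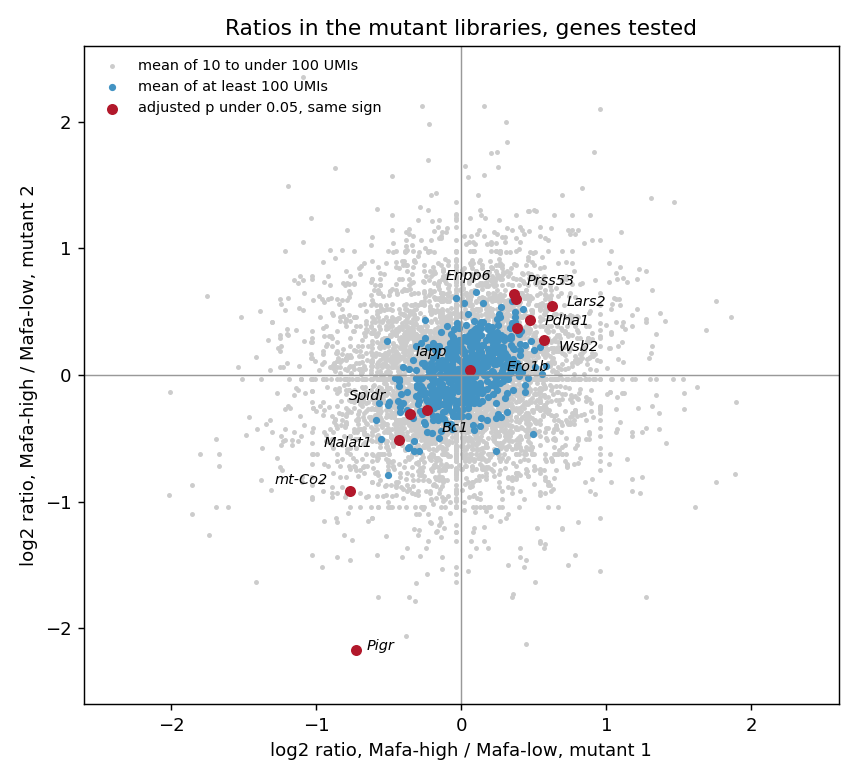
Log2 ratio of Mafa-high to Mafa-low cells in mutant 1 (horizontal axis) against mutant 2 (vertical axis) for the genes tested, after TMM scaling. Grey points have a mean below 100 UMIs, blue points at least 100, and red points are the 12 genes called. The rare genes scatter in all directions, the called genes lie near the diagonal except Pigr, and 2 genes lie outside the axes.

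Among the higher genes, Ero1b and Lars2 were called in the most thinning draws. Ero1b encodes an oxidase of the endoplasmic reticulum that serves disulfide bond formation in proinsulin. It had 33.1 UMIs per 10000 in Mafa-low and 44.4 in Mafa-high cells of mutant 1, and 30.8 and 40.9 in mutant 2. The log2 ratio was 0.38 ± 0.05 (SE, adjusted p = 0.00199), and the level rose in order over the 4 quartiles of both libraries. Lars2, the mitochondrial leucyl-tRNA synthetase, had 4.72 and 7.49 UMIs per 10000 in mutant 1 and 4.46 and 6.67 in mutant 2. Its log2 ratio was 0.59 ± 0.08 (adjusted p = 0.00272), again in order over the quartiles of both libraries. Ratios are given after TMM scaling, which lowers them by 0.04 in mutant 1 and 0.03 in mutant 2 against the plain shares.

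Prss53 and Enpp6 differed by about as much. Prss53 encodes a serine protease and rose from 4.22 to 5.64 UMIs per 10000 in mutant 1 and from 4.08 to 6.34 in mutant 2 (log2 ratio 0.48 ± 0.09, adjusted p = 0.0368). Enpp6, a choline-specific glycerophosphodiesterase, rose from 3.12 to 4.12 and from 3.93 to 6.27 (0.51 ± 0.10, adjusted p = 0.0368). For both genes the change was larger in mutant 2. Wsb2, an adaptor with WD repeats and a SOCS box, was the reverse in this, with 5.93 and 9.05 in mutant 1 and 5.54 and 6.88 in mutant 2 (0.44 ± 0.08, adjusted p = 0.0368). Pdha1, a subunit of the pyruvate dehydrogenase complex that links glycolysis to the citrate cycle, had 3.83 and 5.48 in mutant 1 and 3.61 and 5.02 in mutant 2 (0.46 ± 0.09, adjusted p = 0.0396). Iapp, the amylin gene cosecreted with insulin, changed least, from 852 to 911 and from 763 to 803 UMIs per 10000. Its log2 ratio of 0.05 passed the edgeR test in the draw used here (SE 0.0030, adjusted p = 1.68e-07). The ratios were 0.056 in mutant 1 and 0.039 in mutant 2, further apart than this SE, so its size was not taken as the precision. Iapp was called in 9 of the 20 draws, with an adjusted p of 0.00579 in another draw. It did not pass in the sums without thinning (adjusted p = 0.284).

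**Figure D3:**
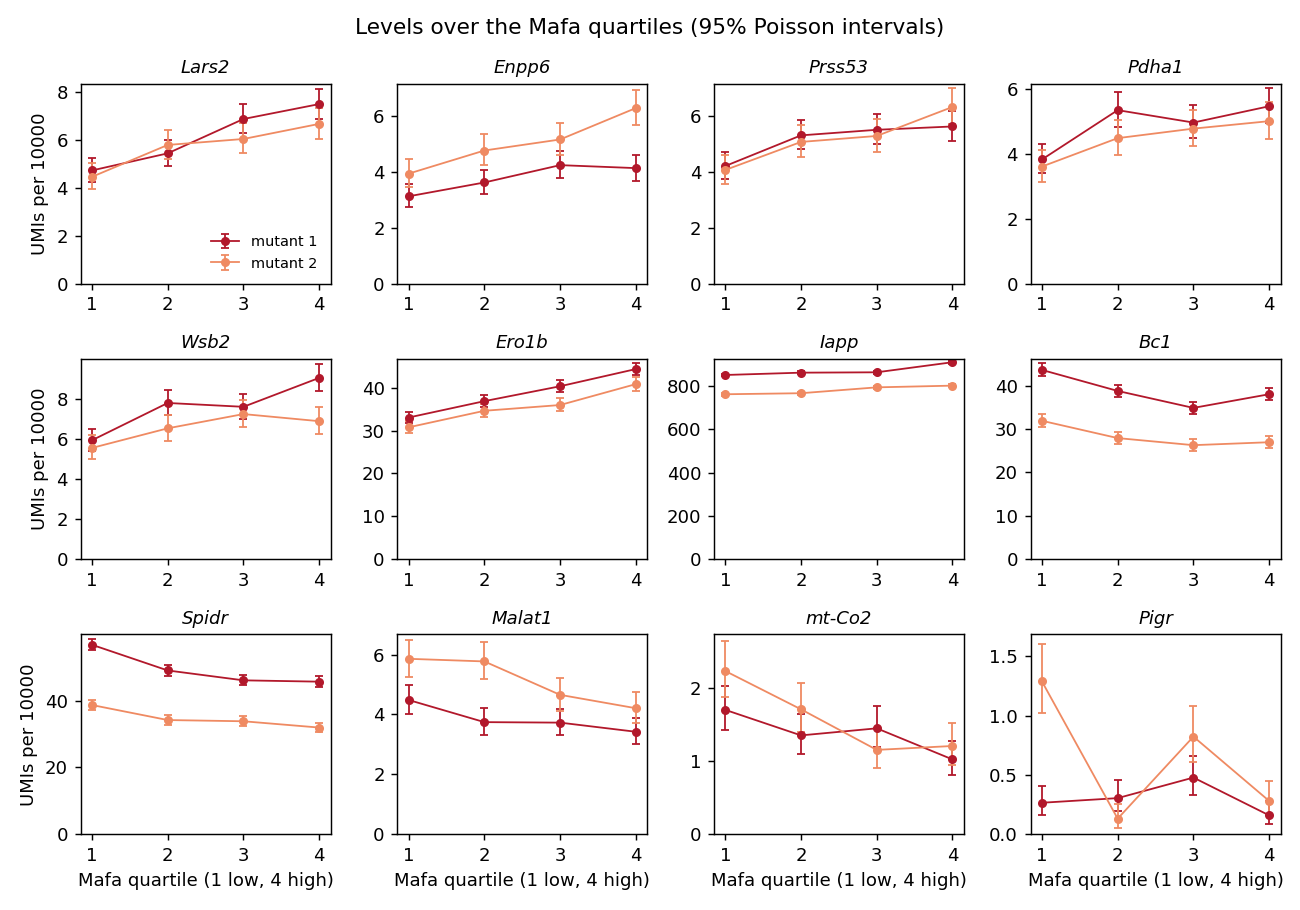
UMIs per 10000 (vertical axis, from 0) of the 12 called genes over the 4 Mafa quartiles of mutant 1 and mutant 2, with exact 95% Poisson intervals. The levels rise or fall in order over the quartiles of both libraries for 6 of the 12, and Pigr in mutant 2 is high in quartiles 1 and 3 and low in quartiles 2 and 4.

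Among the lower genes, Spidr and Bc1 were the most abundant. Spidr, which encodes a scaffold protein of DNA repair, fell from 56.7 to 45.7 UMIs per 10000 in mutant 1 and from 38.7 to 31.9 in mutant 2 (log2 ratio -0.34 ± 0.05, adjusted p = 0.00393). Bc1, a short noncoding RNA derived from a retroposon, fell from 43.6 to 38.0 and from 31.9 to 26.9 (-0.26 ± 0.05, adjusted p = 0.0435). Bc1 belongs to a repeat family, so its counts are uncertain where reads of other copies could be assigned to it. Spidr was lowest in quartile 4 and Bc1 in quartile 3 of both libraries, and neither kept its sign when the top 10% of cells was set against the bottom 10%, with log2 ratios of 0.12 for Spidr and 0.31 for Bc1. Malat1, a nuclear long noncoding RNA, fell from 4.48 to 3.42 and from 5.86 to 4.21 (-0.47 ± 0.09, adjusted p = 0.0368).

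The remaining lower genes were rare. mt-Co2, a mitochondrially encoded subunit of cytochrome c oxidase, fell from 1.70 to 1.02 UMIs per 10000 in mutant 1 and from 2.23 to 1.20 in mutant 2 (log2 ratio -0.85 ± 0.14, adjusted p = 0.0141). Pigr, the polymeric immunoglobulin receptor, fell from 0.265 to 0.159 in mutant 1 and from 1.29 to 0.281 in mutant 2 (-1.76 ± 0.32, adjusted p = 0.0368). These are 20 and 12 UMIs in mutant 1, whose ratio has a 95% counting interval of -1.90 to 0.37 on the log2 scale, and 78 and 17 UMIs in mutant 2, with an interval of -3.05 to -1.43. The Pigr call rests on mutant 2. With quartiles formed within 10 bins of depth the log2 ratio was -0.54 (adjusted p = 0.532), with cells that carry other hormones or markers left out -0.87 (adjusted p = 0.616), and between the upper and lower 50% of cells -0.18 (adjusted p = 0.884). Pigr stood in the list of acinar markers, and its part in that tissue's signal is given with the other markers below.

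When cells were ranked on set A and all genes were read in set B, edgeR called 5 genes, of which Ero1b, Lars2 and Malat1 were among the 12. Ero1b had a log2 ratio of 0.33 (adjusted p = 0.000217), Lars2 of 0.46 (adjusted p = 0.00737) and Malat1 of -0.59. The other 9 calls were lost, each with a smaller ratio. The ratio of Pdha1 became 0.037 (adjusted p = 0.982) and that of Enpp6 0.13 (adjusted p = 0.901). Prss53 had 0.29, Wsb2 0.25, Iapp 0.036, Spidr -0.15, Bc1 -0.15, mt-Co2 -0.42 and Pigr -0.98, each without passing. Set B holds fewer UMIs, and its Mafa contrast is smaller than that of the quartiles as ranked. With cells that carry other hormones or markers left out, 15 genes passed, among them 7 of the 12. Besides Pigr the calls lost were those of Malat1 (log2 ratio -0.35, adjusted p = 0.132), Enpp6 (0.37, adjusted p = 0.165), Pdha1 (0.35, adjusted p = 0.165) and Iapp (0.012, adjusted p = 0.978).

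The quartiles of control 2 covered a lower range of Mafa. Its Mafa-high cells had 6.49 Mafa UMIs per 10000, near the 5.33 and 5.10 of the Mafa-low cells of the mutants, and 435 of its 499 Mafa-low cells had no Mafa UMI at all. Control 2 showed the same sign for all 7 higher genes and for 3 of the 5 lower genes, where 49.5% of the genes tested lay above 0 and 50.5% below. Ero1b had 9.77 UMIs per 10000 in Mafa-low and 20.01 in Mafa-high cells of control 2 (log2 ratio 1.01), Prss53 1.80 and 3.33 (0.85) and Enpp6 0.631 and 1.13 (0.81). These 3 ratios exceeded those of either mutant library, and their counting intervals lay above 0. The intervals of Lars2 (-0.38 to 0.47), Pdha1 (-0.23 to 0.50) and Wsb2 (-0.05 to 0.54) in control 2 included 0. Malat1 went from 23.8 to 16.6 (-0.55) and mt-Co2 from 11.2 to 9.06 (-0.33). Pigr had 40 and 26 UMIs, with an interval of -1.39 to 0.13 that included 0. Spidr and Bc1 went the opposite way from the mutant quartiles, from 24.9 to 31.7 (0.32) and from 17.2 to 21.98 (0.33). Between the top and bottom 10% of cells, however, the mutants also had ratios above 0 (0.12 and 0.31). In control 2 the Mafa-low cells had a median of 9799 UMIs and the Mafa-high cells 14119, so the quartiles were also formed within 10 bins of depth. The 12 signs stayed as they were, with ratios of 1.06 for Ero1b, 0.31 for Spidr and 0.34 for Bc1. The ratio of Pdha1 went from 0.11 to 0.44, that of Lars2 from 0.02 to 0.14 and that of Pigr from -0.63 to -0.37. With 1 control library these values have no replicate check, and genotype, library and possible batch cannot be told apart.

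**Figure D4:**
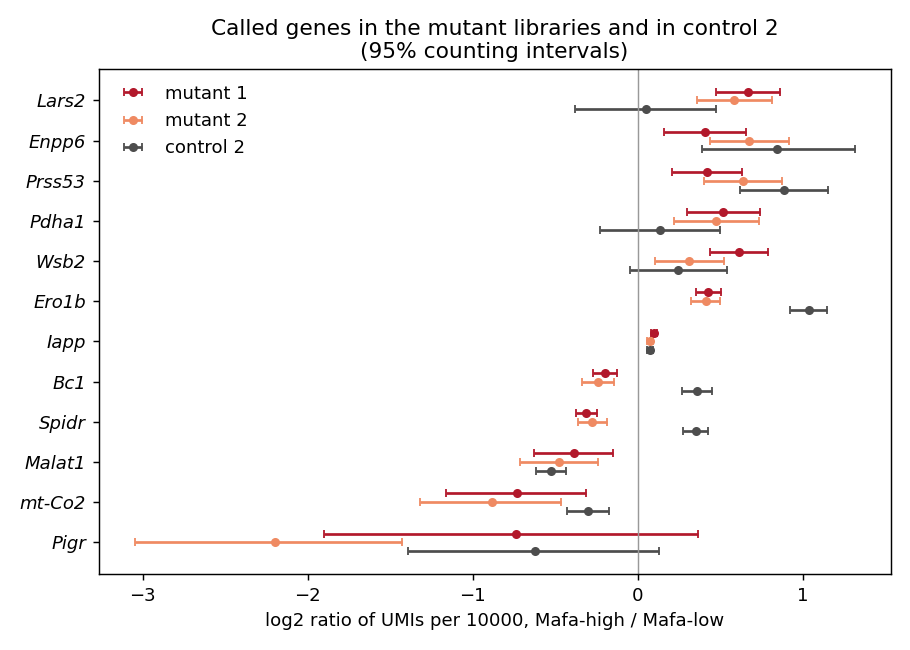
Log2 ratio of UMIs per 10000 in Mafa-high to Mafa-low cells (horizontal axis) for the 12 called genes in mutant 1, mutant 2 and control 2, with exact 95% intervals for counting error, on the scale of plain shares. Ero1b, Prss53 and Enpp6 lie above 0 in all 3 libraries, and Spidr and Bc1 lie below 0 in the mutants and above 0 in control 2.

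Genes that are reported to depend on Mafa did not pass the test in the draw used here, but Glp1r was called in 6 of the 20 draws. Of 18 genes in this list 15 were tested and 0 called by edgeR. Above 0 in both libraries were 7 of them and below 0 only Pcsk1, where 26.7% of all genes tested lay above 0 in both and 27.8% below. The list's median log2 ratio was 0.14, against 0.00 over all genes tested and 0.39 for the list in control 2. Glp1r, the receptor of the incretin GLP-1, had 3.89 and 5.57 UMIs per 10000 in mutant 1 and 3.80 and 4.69 in mutant 2 (log2 ratio 0.39 ± 0.09, adjusted p = 0.126), and passed without thinning (adjusted p = 0.0133). Slc2a2, the glucose transporter GLUT2, had 1.49 and 1.83 in mutant 1 and 1.45 and 2.08 in mutant 2 (0.36 ± 0.13, adjusted p = 0.433). In control 2 Slc2a2 went from 0.351 to 0.902. G6pc2, the islet glucose-6-phosphatase subunit, had 6.55 and 5.82 in mutant 1 and 6.78 and 6.98 in mutant 2. Ccnd2, a cyclin of β-cell division and the most abundant of the list, had a log2 ratio of -0.02 ± 0.07.

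Other transcription factors of the β cell showed no call either. Of 25 in the list 21 were tested, 7 lay above 0 in both libraries and 6 below, and the median was 0.00. Pdx1, which acts with Mafa on the insulin promoter, had 1.56 and 1.92 UMIs per 10000 in mutant 1 and 1.55 and 2.10 in mutant 2 (log2 ratio 0.32 ± 0.13, adjusted p = 0.473). Nkx6-1, the most abundant of the list, had a log2 ratio of 0.06 ± 0.07 and Nkx2-2 one of 0.14 ± 0.09. St18, the gene that carries the insertion, had 61 and 66 UMIs in mutant 1 and 72 and 49 in mutant 2, and its paralog Myt1 20 and 20 in mutant 1 and 26 and 21 in mutant 2. The log2 ratios were -0.25 ± 0.19 for St18 (adjusted p = 0.758) and -0.20 ± 0.30 for Myt1 (adjusted p = 0.890), and the libraries differed in the sign of St18.

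Of the granule genes, Ero1b and Iapp passed upward, while Chga and Scg2, with ratios below 0, were called in 13 and 12 of the 20 draws. Of 21 genes of secretory granules and prohormone processing 20 were tested, of which 2 passed upward, 3 lay above 0 in both libraries and 14 below, with a median of -0.15. Chga, the granule protein chromogranin A and the most abundant that did not pass, had 96.1 and 88.5 UMIs per 10000 in mutant 1 and 87.7 and 78.7 in mutant 2 (-0.17 ± 0.04, adjusted p = 0.161). The sum of the list without Iapp was level between the groups, with 239.0 and 238.5 UMIs per 10000 in mutant 1 and 228 and 227 in mutant 2. That sum holds Ero1b, which rose from 33.1 to 44.4 in mutant 1 and from 30.8 to 40.9 in mutant 2. The other members together were therefore lower in Mafa-high cells. Of 31 genes of glucose metabolism 25 were tested, 1 passed (Pdha1), 10 lay above 0 in both libraries and 5 below. Of 27 genes of exocytosis and ion channels 23 were tested and 0 passed, with 7 above 0 in both and 2 below. The most abundant of these, Atp2a3, a calcium pump of the endoplasmic reticulum, had 14.9 and 17.7 in mutant 1 and 12.7 and 15.8 in mutant 2 (0.24 ± 0.06, adjusted p = 0.161), and was called in 11 of the 20 draws. Of 16 receptors 15 were tested and 0 passed, with 4 above 0 in both and 4 below.

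No gene of the stress lists passed the test in the draw used here, but Dnajb1 was called in 13 of the 20 draws, Manf in 8 and Atf5 in 2. Of 27 genes of endoplasmic reticulum folding 26 were tested and 0 passed, with 5 above 0 in both libraries and 13 below. Ero1b, the oxidase of the endoplasmic reticulum that passed upward, was counted with the granule genes and not in this list. Manf, a stress-induced protein of the endoplasmic reticulum, had 10.8 and 13.4 UMIs per 10000 in mutant 1 and 9.50 and 12.1 in mutant 2 (0.29 ± 0.06, adjusted p = 0.0891). Of 21 genes of the integrated stress response 13 were tested and 0 passed, with 4 above 0 in both and 3 below. Their transcription factor Atf4 had 59 and 31 UMIs in mutant 1 and 40 and 51 in mutant 2, so the libraries went opposite ways. Of 17 heat shock genes 16 were tested and 0 passed, with 6 above and 3 below, and Dnajb1, an Hsp40 cochaperone, had 22.7 and 27.4 UMIs per 10000 in mutant 1 and 21.0 and 25.9 in mutant 2 (0.25 ± 0.05, adjusted p = 0.0871). Among immediate early genes 19 were tested and 0 passed, 4 above and 5 below, and Fos had a log2 ratio of 0.01 ± 0.06. The counts of 0 are by edgeR at 1 residual degree of freedom and do not show that levels were equal.

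Mitochondrially encoded and ribosomal protein genes had median ratios below 0 in all 3 libraries, with 1 gene passing the test, but for the mitochondrial genes the median of control 2 was near 0 once depth was matched. Of 13 mitochondrial genes 10 were tested and 1 passed (mt-Co2), but 9 lay below 0 in both mutant libraries and 0 above, with medians of -0.21 in mutant 1, -0.20 in mutant 2 and -0.22 in control 2. Named after their values were seen, mt-Cytb (log2 ratio -0.47, adjusted p = 0.0685) and mt-Nd1 (-0.23, adjusted p = 0.340) were each called in 11 of the 20 draws, against 10 for mt-Co2. The selection limited the mitochondrial share of a cell, and mt-Co3, the most abundant that did not pass, had a log2 ratio of only -0.07 ± 0.05. Of 82 cytosolic ribosomal protein genes 76 were tested and 0 passed, but 50 lay below 0 in both mutant libraries and 7 above, with medians of -0.19, -0.17 and -0.22. Their sum went from 184 to 173 UMIs per 10000 in mutant 1, from 189 to 176 in mutant 2 and from 261 to 238 in control 2. Of nuclear-encoded respiratory chain genes 67 were tested and 0 passed, with 21 above 0 in both and 26 below, and medians of -0.02 in mutant 1, 0.00 in mutant 2 and -0.14 in control 2. Of a list of mostly nuclear RNAs 8 were tested, of which Malat1 passed downward, and Meg3, the most abundant that did not pass, had a log2 ratio of -0.06 ± 0.09. The list also holds Lars2, which codes for a protein and passed upward.

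With quartiles formed within 10 bins of depth, mt-Co2 (log2 ratio -0.79, adjusted p = 0.00201), Malat1 (-0.54, adjusted p = 0.00112) and Lars2 (0.56, adjusted p = 0.000192) were still called. The mitochondrial medians then were -0.23 in mutant 1 and -0.14 in mutant 2, with 8 of 10 genes below 0 in both, and -0.04 in control 2. The ratio of mt-Co3 in control 2 went from -0.12 to 0.05. The ribosomal medians were -0.18 and -0.15 in the mutants, with 45 of 76 genes below 0 in both, and -0.29 in control 2. Thus the ratios of the mutants stayed below 0 at matched depth for both lists, and that of the mitochondrial list in control 2 shrank. The part of RNA quality in these values was not tested.

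**Figure D5:**
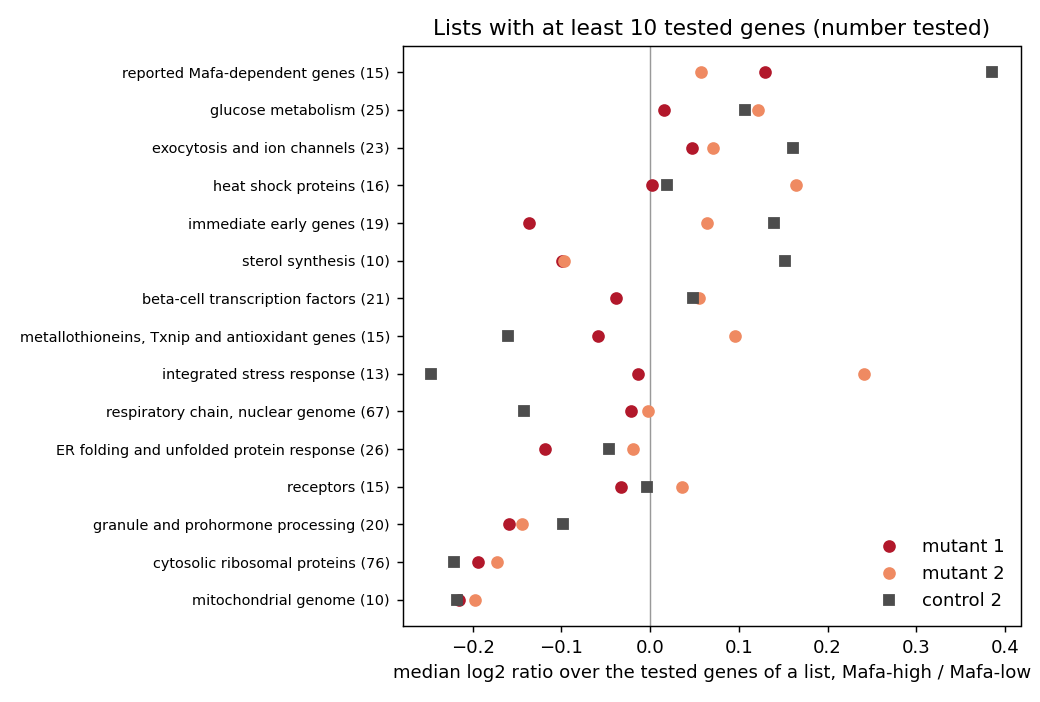
Median log2 ratio of Mafa-high to Mafa-low cells (horizontal axis) over the tested genes of each list with at least 10 tested, in mutant 1, mutant 2 (circles) and control 2 (squares). Depth was not matched here. In all 3 libraries the mitochondrial, ribosomal, granule, endoplasmic reticulum folding and nuclear-encoded respiratory chain lists lie below 0, and the Mafa-dependent, exocytosis, glucose metabolism and heat shock lists above 0, several of them by less than 0.05 in a library.

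Aldh1a3, an aldehyde dehydrogenase known from failing and dedifferentiating β cells, had fewer UMIs in Mafa-high than in Mafa-low cells of both mutant libraries, with a call that depended on the setting. It had 37 and 11 UMIs in mutant 1 and 23 and 11 in mutant 2, or 0.491 and 0.146 and 0.380 and 0.182 per 10000 (log2 ratio -1.47 ± 0.34), and did not pass in the draw used here (adjusted p = 0.117). It was called in 12 of the 20 draws, and without thinning the counts were 78 and 23 in mutant 1 and 79 and 28 in mutant 2 (-1.54 ± 0.22, adjusted p = 0.00252). It also passed with quartiles within bins of depth (-1.62, adjusted p = 0.0185), with the deepest 10% of cells left out (-1.54, adjusted p = 0.00913), between the top and bottom 10% of cells (-2.30, adjusted p = 0.0319) and, with the largest of these ratios, where cells with other hormones or markers were left out (-2.55, adjusted p = 2.15e-05). It did not pass at 4000 UMIs per cell (-0.92, adjusted p = 0.352), in set B (-1.36, adjusted p = 0.383), between the upper and lower 50% of cells (-1.03, adjusted p = 0.231) or in cells with a Y-linked and no Xist UMI (adjusted p = 0.415). Nor did it pass with RLE factors, with plain totals or with TMM on totals without hormone and mitochondrial genes. The same held by DESeq2, without the library block and without a filter. These ratios lay between -1.43 and -1.47, with an adjusted p of at least 0.425. In control 2 it had 183 and 137 UMIs (-0.44). Of 15 genes of dedifferentiated or immature β cells only 4 were abundant enough to test, with 3 below 0 in both libraries and 0 above. Pyy, a peptide hormone of immature endocrine cells and the most abundant of them, had 4.50 and 3.93 UMIs per 10000 in mutant 1 and 6.52 and 4.88 in mutant 2 (-0.35 ± 0.09, adjusted p = 0.166).

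Of the remaining lists, 0 genes passed among metallothionein and antioxidant genes (15 tested, 2 above 0 in both and 5 below), MHC class I and interferon genes (5 tested, 2 and 1), sterol synthesis (10 tested, 1 and 4), the cell cycle (4 tested, 1 and 0) and Y-linked genes (4 tested, 1 and 2). None of the 12 genes normally silenced in β cells reached the minimum for testing. The most abundant members were near even, with log2 ratios of -0.01 ± 0.09 for Mt1, a metallothionein, 0.00 ± 0.07 for H2-K1, an MHC class I chain, and -0.05 ± 0.10 for Ddx3y.

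Markers of other islet and pancreatic cells were low in both groups. The α-cell list without Gcg, 9 genes led by Ttr, summed to 7.11 UMIs per 10000 in Mafa-low and 6.49 in Mafa-high cells of mutant 1, and to 7.49 and 7.28 in mutant 2. Gcg itself was higher in Mafa-high cells, as given above. Acinar markers, 20 genes led by Pigr, summed to 75 and 94 UMIs in mutant 1 and 99 and 48 in mutant 2. Without Pigr they summed to 55 and 82 in mutant 1 and to 21 and 31 in mutant 2, so the rest of the acinar list was higher where Pigr was lower. Ctrl, a chymotrypsin-like protease of acinar cells, was at 0 in both mutant libraries. Macrophage and leukocyte markers had 61 and 52 UMIs in mutant 1 and 106 and 67 in mutant 2, led by C1qa and Cd74, and endothelial markers, led by Cdh5, 70 and 75 in mutant 1 and 77 and 77 in mutant 2. Duct markers, led by Krt18, had 232 and 259 in mutant 1 and 197 and 171 in mutant 2. In the mutants, stellate and Schwann markers stayed at or below 27 UMIs in each group and δ markers without Sst at or below 46. In control 2 stellate and fibroblast markers went from 17 UMIs in Mafa-low to 67 in Mafa-high cells, led by Col1a2 (1 and 25) and Col1a1 (1 and 16), and their part in the control 2 ratios was not tested. In the mutants the PP-cell list without Ppy was nearly all Pyy.

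Without thinning, when deep cells count for more, 66 of 8818 genes passed (0.748%), 38 of them higher in Mafa-high cells (0.431%) and 28 lower (0.318%), and 11 of the 12 genes above were among them. The exception was Iapp. From the lists, in addition to those, Glp1r, Trpm5, Atp2a3, Manf, Dnajb1 and Atf5 then passed upward, and Aldh1a3, Chgb, Scg2, 7 mitochondrial genes (mt-Co2 among them) and 6 ribosomal protein genes downward. In control 2 the sign was the same for 30 of the 38 and for 22 of the 28. Over the 20 draws of thinned UMIs, 26 genes were called in at least 10, with 13 higher and 13 lower. Named after their values were seen, those outside the 12 included Acly, the ATP citrate lyase, called in 14 draws (21.7 and 26.4 UMIs per 10000 in mutant 1, 19.8 and 24.4 in mutant 2), and Scg2, the granule protein secretogranin II, called in 12 (9.88 and 8.49 in mutant 1, 13.4 and 10.6 in mutant 2).

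Promoters of the called genes were searched for the letters TGCTGAC and TGCTGA, of which the second is part of the first and both belong to the Maf recognition element, on both strands. RefSeq promoter windows of 300 bases from GRCm38.p6 were found for 10 of the 12 genes, and none held either run of letters. TGCTGAC was in 4.67% and TGCTGA in 19.5% of all 32851 windows, and in 3.43% and 14.8% of the 6322 windows of genes tested. For the 38 genes higher without thinning, 32 had windows, and TGCTGAC was in 2 of 45 windows (those of Agpat1 and Pde10a) and TGCTGA in 8.89%. For the 28 lower genes, 16 had windows, with TGCTGAC in 1 of 20 (that of Gm20754) and TGCTGA in 20% of them. These are matches of letters in short windows and not binding sites.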

How the data were processed

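Islet cells were profiled in 2 mutant and 2 control libraries by label, and matrices of 3 libraries were used. The authors used DropEst to obtain UMI counts, which were deposited as whole numbers for each gene in each cell and are not normalized. The submitters' processing notes name GRCm39 and Seurat, without versions, and the aligner is not given in the sources used here. The filters of the methods had not been fully applied, since 83, 5 and 25 barcodes of mutant 1, mutant 2 and control 2 lay outside them.

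Counts were thinned without replacement to 2000 UMIs per cell and summed per quartile and library. Sums were tested in edgeR 4.0.16 (R 4.3.3, quasi-likelihood test, TMM, library block, Benjamini-Hochberg over all genes tested), without the 6 genes of the selection (Mafa, Ins1, Ins2, Gcg, Sst, Ppy). Ratios per library used a prior count of 1. No doublets were removed. Alternatives covered scaling, DESeq2 1.42.0, filters, thinning draws, depth and the choice of cells. The 18 further draws, the depth bins in control 2 and the list medians within depth bins were added after seeing the data. The steps were tested on simulated data. Python 3.11.15 and numpy 2.4.6 were used.

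Named were the genes of the selection, the 10 highest and 10 lowest calls with a mean of at least 30 UMIs, up to 4 members of each list, and Pdx1, Nkx6-1, Nkx2-2, Slc2a2, Myt1, St18, Aldh1a3, Atf4 and sex-linked genes. Some named genes are not reported here. The members and lists were chosen with earlier results of these data known. Both groups of a library come from the same pool of animals, which makes the library the pair. The p-values of edgeR use the spread between 2 libraries as shared across genes, more than that of each gene alone. The weight of the shared spread (prior degrees of freedom) was 15.4 in the main setting, against 1 residual degree of freedom per gene. It was 677 in set B and infinite where cells with other hormones or markers were left out. A small p-value there does not measure how well the libraries agreed for a gene.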

Additional observations from a re-analysis of the deposited data

Results flagged for a closer look

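Spidr and Bc1, both lower in the Mafa-high quartile of mutant 1 and mutant 2, were higher in that of control 2. The log2 ratios in control 2 were 0.32 and 0.33. The direction in the mutants depended on the cut. With smaller groups from the ends of the Mafa ranking, the mutants had log2 ratios of 0.12 for Spidr and 0.31 for Bc1. Both then had the sign of control 2, and neither passed the test. The difference between the mutants and control 2 was not tested, since 1 control library was analysed.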

How the results depend on the processing

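Of the 12 calls, edgeR kept 1 with RLE size factors (Iapp, adjusted p = 0.0131). It kept 0 with plain UMI totals or with TMM on totals without hormone and mitochondrial genes. These settings had 455, 445 and 435 genes at an unadjusted p below 0.05. The log2 ratios of Ero1b were then 0.381, 0.418 and 0.382, against 0.380 in the main setting. Those of Lars2 were 0.592, 0.629 and 0.593, against 0.591, and those of Iapp 0.049, 0.085 and 0.049, against 0.048. DESeq2 called 6 genes, of which 4 were among the 12 (Ero1b, Spidr, Iapp and Bc1), and had 41 at an unadjusted p below 0.05. Without the library block, which pairs the groups of a library, 0 were called and 352 had an unadjusted p below 0.05. A mean of at least 30 UMIs gave 5 calls, no filter 3, ranking on set A with reading in set B 5, another random draw 61, and 18 further draws between 0 and 65. No thinning gave 66, quartiles within 10 bins of depth 20, the deepest 10% of cells left out 36, and at least 4000 UMIs per cell 19. The upper against the lower 50% of cells gave 8 (5 of the 12 among them), the top against the bottom 10% 9 (5), cells with a Y-linked and no Xist UMI 17 (11), cells without other hormones or markers 15 (7) and at most 5% mitochondrial UMIs 12 (12). The 5% limit kept 377 and 303 cells per quartile in the mutants and changed no value, so it was no further test. In the draws, edgeR's estimate of the prior degrees of freedom ran from 5.99 to infinite. The number past 0.5 log2 in both libraries, 272, became 40 at a mean of at least 30 UMIs, 2243 without a filter, 162 in set B and 9 at 1 log2 unit. With 1 library left out it was 1359 to 1532 in the other alone, and no test was possible with 0 residual degrees of freedom. The sign reversed for Myt1 in another draw (0.044) and at 4000 UMIs (0.24), for St18 in set B (0.11) and at 4000 UMIs (0.15), for Nkx6-1 in set B (-0.063), and between the top and bottom 10% of cells for Spidr (0.12) and Bc1 (0.31). In mutant 2 alone Atf4 was at 0.31 and in mutant 1 alone St18 was at 0.07, against -0.31 and -0.25 in both. The causes were not tested. Cells with a Xist UMI were too few for a comparison of their own.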

Other observations

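Tbc1d22b, named after its values were seen, lay just outside the threshold with an adjusted p of 0.0504 by edgeR and was called in 16 of the 20 draws. It had 57.5 and 51.6 UMIs per 10000 in Mafa-low and Mafa-high cells of mutant 1, 41.1 and 33.7 in mutant 2, and 23.9 and 30.3 in control 2. Its ratio thus had the same signs as those of Spidr and Bc1 in the 3 libraries. So did that of Gm36264, also named after its values were seen and called in 13 of the 20 draws. Gm36264 had 27.3 and 25.2 in mutant 1, 19.9 and 17.2 in mutant 2, and 12.5 and 17.1 in control 2. The difference between the mutants and control 2 was not tested.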
